A study of Saccharomyces cerevisiae with 15 samples.

Results

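The small heat shock and Msn2/4 marker genes of budding yeast are 7 of the 6692 yeast features in the deposited count table: HSP12 (YFL014W), HSP26 (YBR072W), HSP42 (YDR171W), DDR2 (YOL052C-A), SPI1 (YER150W), RTN2 (YDL204W) and YGP1 (YNL160W). They were chosen by name, as genes commonly read as reporters of the environmental stress response, and all 7 passed the filter on low counts. Strand-specific RNA sequencing was done on 15 libraries in 5 groups of 3. All cells are MATa his3∆1 leu2∆ met15∆ ura3∆ in the BY4741 background, grown at 30 °C without isoleucine and valine. Wild type (WT) was sampled without sulfometuron (SM) and after 25 min in 1 µg/ml SM, an inhibitor of branched-chain amino acid synthesis that induces the activator Gcn4. The spt3, spt8 and gcn5 strains carry spt3∆::kanMX4, spt8∆::kanMX4 or gcn5∆::kanMX4 and were sampled with SM only, so a strain's response to SM and its level before SM cannot be told apart. Each deletion is represented by 1 strain number. The question was what SM, and then the loss of each SAGA subunit, did to these transcripts.

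Msn2 and Msn4 are paired zinc-finger activators that enter the nucleus under many stresses, when protein kinase A activity drops, and bind the stress response element (STRE). Hsf1, the heat shock factor, binds heat shock elements (HSE) and drives chaperone genes, and some small heat shock genes have sites for both. The coactivator complex SAGA acetylates histones through Gcn5, and its subunits Spt3 and Spt8 contact the TATA-binding protein.

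Library depth was 24.8 to 45.7 M yeast counts. Levels are given as counts divided by a size factor from the 74 of 92 ERCC spike-in RNAs seen in every library, which were added to a fixed mass of RNA. The alternative scaling, TMM, treats most yeast genes as unchanged. In these bulk samples fewer expressing cells and less RNA per cell cannot be told apart. The labels call the replicates separate samples without saying whether they came from separate cultures, so each p-value speaks only to the spread among the samples at hand, which may be technical. The deleted gene had 1 to 3 raw counts (SPT3), 11 to 17 (SPT8) and 12 to 29 (GCN5) in its own strain. The 6 a-specific transcripts used to check the mating type summed to 87808 to 164701 scaled counts by group, and 4 alpha-specific ones to 4549 to 11860; none of these was at 0. Library 3 of the gcn5 strain stood apart from libraries 1 and 2 (chi-square per degree of freedom 100.9 and 74.8, against 10.1 to 35.6 for the other pairs), so values that move with it are given without it as well, an alternative chosen after seeing the data. LEU2 and MET15, missing from the parent strain, had 70 and 82 counts in untreated WT library 1 and at most 6 in the others; calls lost without that library are named beside the results. The library names fall into 2 sets, WT and spt3 in the first and spt8 and gcn5 in the second. For spt8 or gcn5 against WT or spt3 the set and the strain cannot be told apart.

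The stretches upstream of 5 of the genes are shown because they cover the largest falls without Spt3 (DDR2, HSP12), the smallest (HSP42, YGP1) and the gene that was higher without Gcn5 (HSP26). They were read 5′ to 3′ on the coding strand from the RefSeq genome of the R64 assembly, and end just after the last TATA-box spelling before the coding start. Capitals mark STRE, HSE units and TATA boxes; matches further upstream lie outside these windows, which are at most 300 bases long. The coordinates are chrVI:106824-107123 (plus strand) for HSP12, chrXV:231861-232160 (minus) for DDR2, chrIV:806368-806477 (plus) for HSP42, chrXIV:336094-336393 (plus) for YGP1 and chrII:381589-381888 (plus) for HSP26.
HSP12: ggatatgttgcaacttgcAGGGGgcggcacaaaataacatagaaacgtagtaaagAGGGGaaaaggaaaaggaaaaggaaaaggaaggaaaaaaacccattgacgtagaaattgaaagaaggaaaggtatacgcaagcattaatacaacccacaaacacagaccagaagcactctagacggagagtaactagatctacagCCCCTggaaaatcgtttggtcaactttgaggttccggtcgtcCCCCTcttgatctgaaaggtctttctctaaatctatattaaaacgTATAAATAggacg
DDR2: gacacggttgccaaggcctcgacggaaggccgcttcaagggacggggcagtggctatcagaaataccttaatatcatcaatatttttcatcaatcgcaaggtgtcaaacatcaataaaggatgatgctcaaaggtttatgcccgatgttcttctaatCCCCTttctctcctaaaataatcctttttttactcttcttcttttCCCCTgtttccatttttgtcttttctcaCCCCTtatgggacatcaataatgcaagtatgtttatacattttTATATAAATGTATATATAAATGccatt
HSP42: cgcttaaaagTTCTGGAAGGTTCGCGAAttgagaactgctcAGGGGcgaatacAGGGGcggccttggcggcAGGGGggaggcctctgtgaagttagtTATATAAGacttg
YGP1: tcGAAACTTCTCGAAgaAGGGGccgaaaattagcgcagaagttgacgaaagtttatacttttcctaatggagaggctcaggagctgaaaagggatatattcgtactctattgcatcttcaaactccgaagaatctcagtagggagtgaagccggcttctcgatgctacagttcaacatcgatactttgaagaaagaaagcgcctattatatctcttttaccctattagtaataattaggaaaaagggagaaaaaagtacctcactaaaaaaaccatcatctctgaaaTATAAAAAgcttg
HSP26: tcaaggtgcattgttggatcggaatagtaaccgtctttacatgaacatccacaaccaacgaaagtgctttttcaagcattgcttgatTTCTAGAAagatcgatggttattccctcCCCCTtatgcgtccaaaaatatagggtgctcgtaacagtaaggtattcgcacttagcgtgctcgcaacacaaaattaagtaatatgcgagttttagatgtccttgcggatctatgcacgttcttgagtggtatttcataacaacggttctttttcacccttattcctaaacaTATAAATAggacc

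The STRE was searched as AGGGG and its reverse complement CCCCT, in the 500 bases before the coding start. HSP12 holds 5 of them, DDR2 4, HSP26, HSP42 and SPI1 3 each, and RTN2 and YGP1 1 each. Of 6659 upstream regions of the same length in the genome, 33.7% hold at least 1, 8.03% at least 2 and 0.451% at least 4. The genes are known as Msn2/4 targets, so these sites are no independent finding. HSE units were searched as GAANNTTC or TTCNNGAA, overlaps counted: HSP42 holds 3, YGP1 2, HSP26, DDR2 and SPI1 1 each, and HSP12 and RTN2 0, against 35.2% of all regions with at least 1. The TATA box was searched on the coding strand in 8 spellings, TATAAAAA, TATAAAAG, TATAAATA, TATAAATG, TATATAAA, TATATAAG, TATATATA and TATATATG; all 7 genes hold at least 1, against 36.6% of regions. The Gcn4 site, TGACTC or GAGTCA, is in none of the 7 and in 13.0% of regions.

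**Figure D1:**
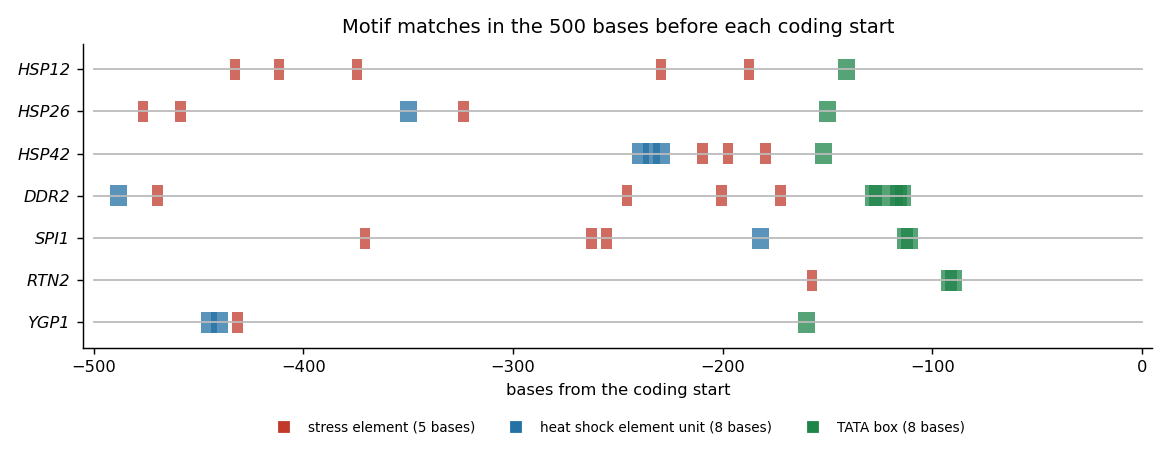
Positions of STRE, HSE units and TATA boxes in the 500 bases before the coding start of each of the 7 genes, with distance from the start in bases on the x axis and a row for each gene. HSP12 has 5 STRE marks and RTN2 and YGP1 have 1, while a TATA box lies before every gene.

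The genes lie on 6 chromosomes: HSP12 on VI (107256 to 107585, plus strand), HSP26 on II (382030 to 382674, plus), HSP42 on IV (806621 to 807748, plus), DDR2 on XV (231570 to 231755, minus), SPI1 on V (468370 to 468816, plus), RTN2 on IV (94605 to 95786, plus) and YGP1 on XIV (336545 to 337609, plus). These are the coordinates of the deposited table, and 0 of the 7 overlap another feature in it.

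The 7 genes sat at very different levels, and their order across groups was not the same. HSP12, a small protein that stabilises membranes under stress, had 14677, 14400 and 13982 scaled counts in the WT libraries without SM and 12920, 15899 and 12361 with SM. It had 2094, 1955 and 2707 in spt3, 1652, 2223 and 3655 in spt8, and 8741, 7225 and 11550 in gcn5. The WT groups overlapped, the spt3 and spt8 groups overlapped well below them, and gcn5 lay between.

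HSP26, a small heat shock protein that binds unfolding proteins, had 8642, 8080 and 6878 in WT without SM and 4135, 5431 and 3977 with SM. It had 1702, 1299 and 1384 in spt3, 1421, 1530 and 1753 in spt8, and 6445, 4474 and 12071 in gcn5, where library 3 was the highest of all 15. HSP42, the other cytosolic small heat shock protein, which sorts misfolded proteins into aggregates, had 11756, 12358 and 12058 without SM and 8999, 11125 and 8937 with SM. HSP42 had 5393, 4510 and 5888 in spt3, 5838, 7184 and 8096 in spt8, and 2886, 3141 and 6496 in gcn5. So HSP26 was lowest in the spt3 and spt8 libraries and HSP42 in gcn5 libraries 1 and 2.

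DDR2, a short stress-induced gene of unknown biochemical function, had 5469, 5310 and 4921 without SM and 6149, 6933 and 5866 with SM. It had 451, 566 and 909 in spt3, 630, 1037 and 1638 in spt8, and 3225, 2576 and 4411 in gcn5. Those 3 ranges of the deletion strains lay below both WT ranges, and the spt3 and spt8 ranges overlapped. SPI1, a cell wall protein induced in stationary phase, had 22534, 20204 and 19341 without SM and 14559, 16667 and 13850 with SM. SPI1 had 4507, 3433 and 3741 in spt3, 4895, 6326 and 6742 in spt8, and 9749, 7827 and 11719 in gcn5, with no overlap between any of the 5 groups.

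RTN2, a reticulon that shapes the endoplasmic reticulum, had 30774, 29708 and 26553 without SM and 14334, 17659 and 11835 with SM. It had 5872, 4251 and 5134 in spt3, 6271, 7311 and 8407 in spt8, and 5123, 4906 and 9193 in gcn5; every SM-treated library lay below every untreated one. YGP1, a secreted glycoprotein related to the cell wall and made under nutrient limitation, had 85818, 89914 and 79441 without SM and 86253, 98985 and 76388 with SM. YGP1 had 52837, 38789 and 46541 in spt3, 50100, 63208 and 66591 in spt8, and 35523, 27636 and 55766 in gcn5. It was the most abundant of the 7, from 47.8% of their summed counts in untreated WT library 1 and gcn5 library 2 to 72.5% in spt3 library 1. Per kilobase of coding length in untreated WT, YGP1 stood at 79866 scaled counts, SPI1 at 46293, HSP12 at 43493, DDR2 at 28136, RTN2 at 24545, HSP26 at 12196 and HSP42 at 10689.

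**Figure D2:**
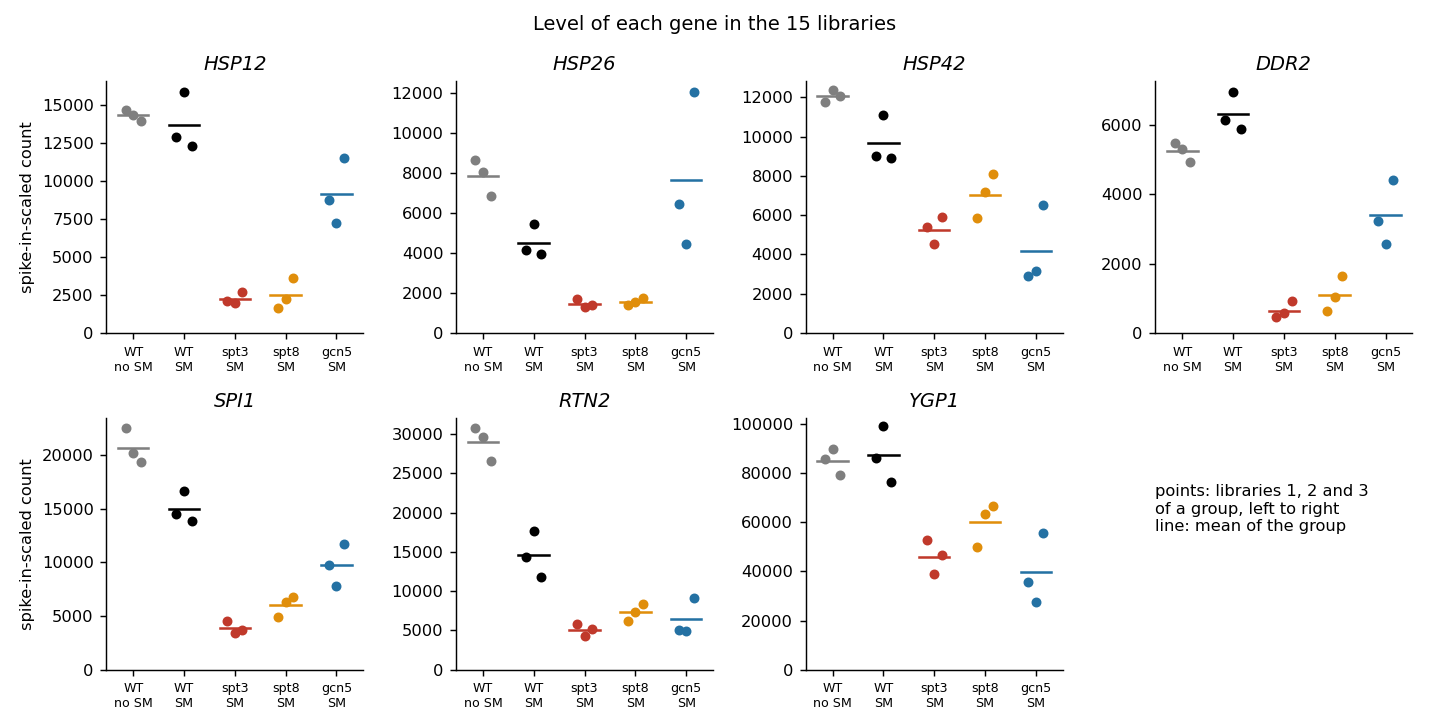
Scaled counts of each of the 7 genes in every library (points) and the mean of each group (line), on linear axes from 0, for the 5 groups of 3 libraries. HSP12 and DDR2 drop most in spt3 and spt8, and HSP26 in gcn5 library 3 is its highest point.

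By spike-ins, the order of group means placed untreated WT highest for HSP12, HSP26, HSP42, SPI1 and RTN2, and SM-treated WT highest for DDR2 and YGP1. SPI1 passed the test at each of its 4 steps by spike-ins, from 20693 ± 1652 (SD) in untreated WT through 15025 ± 1465 in WT with SM, 9765 ± 1946 in gcn5 and 5988 ± 969 in spt8 to 3894 ± 553 in spt3. Some of these calls were lost without single libraries, as given below. HSP42 passed at none of its 4 by spike-ins, from 12057 ± 301 through 9687 ± 1246, 7039 ± 1136 (spt8) and 5264 ± 698 (spt3) to 4174 ± 2014 (gcn5). Groups further apart in that order did differ. With TMM HSP42 was called at every step but the last, from spt3 to gcn5. For HSP12, WT without SM and with SM, and spt8 and spt3, were not called different by spike-ins. For HSP26 this held for untreated WT and gcn5 and for spt8 and spt3, and for DDR2 for both WT groups and for spt8 and spt3. For RTN2 it held for spt8 and gcn5 and for gcn5 and spt3, and for YGP1 for both WT groups, spt8 and spt3, and spt3 and gcn5. Some of these pairs were called with TMM. HSP12 and YGP1 were then lower with SM, and YGP1 was lower in spt3 than in spt8. RTN2 was lower in spt3 than in gcn5, and HSP26 lower in gcn5 than in untreated WT.

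In WT, SM lowered 3 of the 7 transcripts, and none was called higher in the fit of all 5 groups. By edgeR's quasi-likelihood test across 6564 features, RTN2 fell by 0.99 log2 (1.99-fold, SE 0.20, Benjamini-Hochberg adjusted p = 5.94e-05). HSP26 fell by 0.80 (SE 0.22, edgeR adjusted p = 0.0021) and SPI1 by 0.46 (SE 0.18, edgeR adjusted p = 0.0249). The others were at -0.32 (HSP42), -0.06 (HSP12), 0.04 (YGP1) and 0.27 (DDR2). Over all features 7.57% were called lower and 55.7% higher. The median feature rose by 0.54, so all 7 lay below it, with a median of -0.32. With TMM, 6 of 7 were called lower, all but DDR2 at -0.28, against 40.7% of all features called lower and 38.7% higher. When the fit held only the WT libraries, by spike-ins, DDR2 was called higher (0.27, edgeR adjusted p = 0.0307) and HSP42 joined those called lower (-0.32, edgeR adjusted p = 0.00455), against 65.1% and 12.5% of features. The SPI1 call was lost without untreated library 1 (edgeR adjusted p = 0.115), SM library 1 (0.0736) or SM library 3 (0.087).

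Without Spt3 all 7 transcripts were lower than in SM-treated WT. DDR2 fell by 3.30 log2, a 9.83-fold lower level (SE 0.26, edgeR adjusted p = 7.42e-13), and HSP12 fell by 2.61, 6.10-fold lower (SE 0.23, edgeR adjusted p = 8.17e-12). SPI1 fell by 1.95, HSP26 by 1.63 and RTN2 by 1.52, while YGP1 fell by 0.92 (1.89-fold) and HSP42 fell by 0.88 (1.84-fold, edgeR adjusted p = 0.00143). Called lower over all features were 14.0%, and 33.5% with TMM, where all 7 members were also called. Ranked from the lowest log2 change of 6564, DDR2 was at 13 and HSP12 at 24, and HSP42 at 469. The members' median was -1.63 and that of all features 0.11.

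Without Spt8, 6 of the 7 were lower than in SM-treated WT. DDR2 fell by 2.52 log2 (5.74-fold, SE 0.25, edgeR adjusted p = 9.88e-10), HSP12 by 2.45 (5.47-fold), HSP26 by 1.53, SPI1 by 1.33 and RTN2 by 1.00. YGP1 fell by 0.54 (SE 0.18, edgeR adjusted p = 0.0425), while HSP42, at -0.46 (SE 0.21, edgeR adjusted p = 0.157), was not called. Over all features 5.58% were called lower by spike-ins and 21.4% by TMM, and with TMM all 7 members were. The YGP1 call was lost without WT library 1 (edgeR adjusted p = 0.0916) or 2 (0.151), without spt8 library 1 (0.213) or 2 (0.104), and in DESeq2 (0.0751).

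Without Gcn5, 6 of the 7 were lower and HSP26 was higher than in SM-treated WT. HSP42 fell by 1.21 log2 (2.32-fold, SE 0.22, edgeR adjusted p = 2.23e-05), RTN2 by 1.19 (2.28-fold) and YGP1 by 1.14 (2.20-fold). DDR2 fell by 0.89, SPI1 by 0.62 and HSP12 by 0.58 (edgeR adjusted p = 0.0268). HSP26 was higher by 0.76 (SE 0.22, edgeR adjusted p = 0.00601), although the 2 groups overlapped. Over all features 30.4% were called lower and 10.5% higher. With TMM 34.4% were lower and 33.3% higher. HSP26 was then higher by 0.89, and 5 of 7 members were lower, the HSP12 call being lost (-0.40, edgeR adjusted p = 0.0774). HSP12 was also lost without WT library 2 (0.131) or gcn5 library 1 (0.0578) or 2 (0.138), and SPI1 without gcn5 library 2 (0.0576). Without gcn5 library 3, where the median feature lay at -0.39 and 51.2% were called lower, the HSP26 difference was 0.29 (edgeR adjusted p = 0.103), and with TMM and without that library it was 0.68 (edgeR adjusted p = 0.000137); HSP42 was then at -1.67 and YGP1 at -1.45 by spike-ins.

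**Figure D3:**
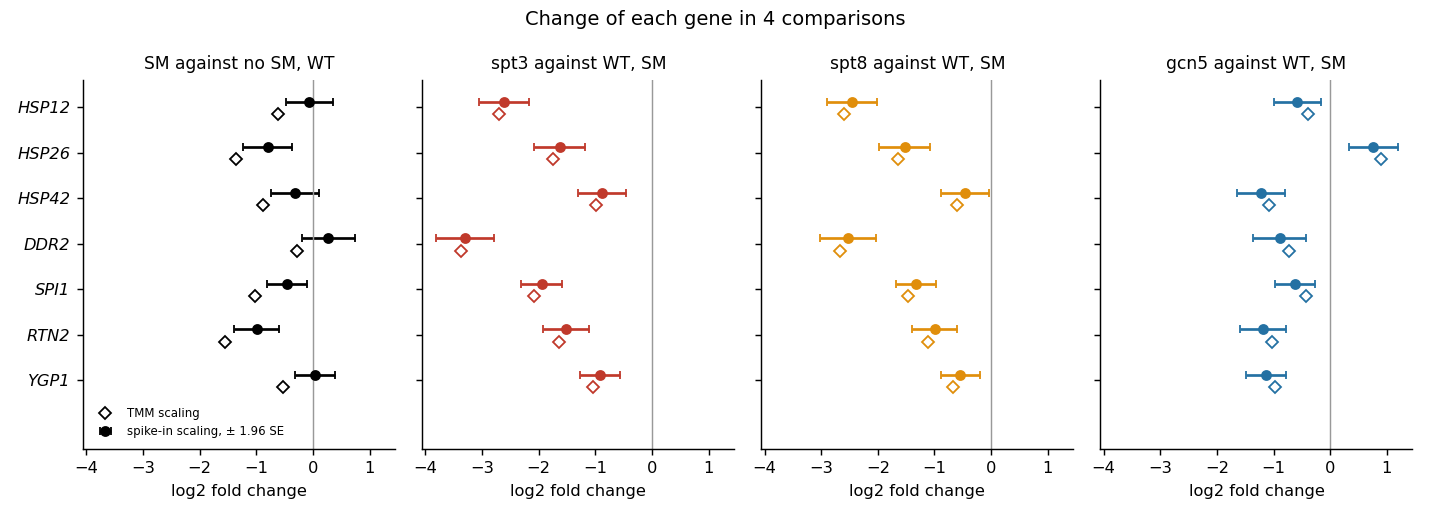
Log2 change of each of the 7 genes for SM in WT and for each deletion strain against SM-treated WT, by spike-in scaling with bars of ± 1.96 SE, beside the TMM value. All 7 are below 0 in spt3 and HSP26 is above 0 in gcn5.

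Compared with each other, the spt3 and spt8 strains differed at 1 gene by spike-ins. SPI1 was lower in spt3 by 0.62 (SE 0.18, edgeR adjusted p = 0.0454), against 2.39% of all features called lower. DDR2 was at -0.78 (edgeR adjusted p = 0.065, interval of ± 1.96 SE from -1.25 to -0.30), and HSP12 and HSP26 at -0.16 and -0.10. For HSP12 the same interval ran from -0.57 to 0.26, and for HSP26 from -0.54 to 0.34. With TMM SPI1, RTN2, HSP42 and YGP1 were called lower, against 15.7% of all features. The SPI1 call was lost on leaving out spt3 library 2 or 3 or spt8 library 2 or 3. With the replicate number as a block SPI1 was not called (edgeR adjusted p = 0.0898) and DDR2 was (0.0487). With gcn5 library 3 left out of the fit, which estimates the spread over all groups, 4 members were called lower here, and 4 with SM in WT and 7 in spt8 against WT. The calls over all features grew as well. In these 3 comparisons 457, 697 and 650 of 6570 features were then lower, against 157, 497 and 366 of 6564 in the full fit. The spt3 and spt8 strains lie in different library sets.

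Between spt8 and gcn5, which share a library set, the genes split. HSP26 was lower in spt8 by 2.29 log2 (4.89-fold, SE 0.23, edgeR adjusted p = 6.68e-10), HSP12 by 1.87 and DDR2 by 1.63, and SPI1 was lower by 0.71. HSP42 was higher in spt8 by 0.75 (SE 0.22, edgeR adjusted p = 0.00455) and YGP1 by 0.60 (edgeR adjusted p = 0.00694). RTN2 was at 0.19 (edgeR adjusted p = 0.449). Over all features 7.75% were called lower and 37.1% higher, and with TMM, which gave the same numbers of member calls, 31.1% and 31.6%. The median feature was at 0.30 by spike-ins. Ranked from the lowest log2 change of 6564, HSP42 was at 5455 and YGP1 at 4813, so many features were as high in spt8. The YGP1 call was lost without gcn5 library 2 (0.0944). Without gcn5 library 3 RTN2 was called higher at 0.53, near the median feature at 0.51, with 4168 of 6570 features called higher. Between spt3 and gcn5, which differ in set, DDR2 (-2.40), HSP26 (-2.39), HSP12 (-2.03) and SPI1 (-1.33) were lower in spt3, against 9.72% of features, and RTN2, HSP42 and YGP1 were at -0.33, 0.33 and 0.22. With TMM RTN2 joined them (-0.61), against 32.0% of features. Without gcn5 library 3 HSP42 (0.80) and YGP1 (0.54) were called higher, but so were 4204 of 6570 features, and the median feature lay at 0.53.

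Ratios between genes of the same library need no scaling. Per coding length, HSP26 stood at 0.812 ± 0.038 (SD, n = 3) of HSP42 in SM-treated WT, 0.489 ± 0.072 in spt3, 0.392 ± 0.029 in spt8 and 3.22 ± 0.71 in gcn5. The 3 gcn5 libraries ran from 2.49 to 3.91, above every library of the other groups, and library 3 was neither the highest nor the lowest of them. HSP12 to HSP42 was 4.84 ± 0.098 in SM-treated WT, 1.46 ± 0.12 in spt3, 1.19 ± 0.31 in spt8 and 8.10 ± 2.15 in gcn5. For this ratio library 3 was the lowest of the gcn5 libraries, at 6.08. In untreated WT HSP26 stood at 1.14 ± 0.14 of HSP42 and HSP12 at 4.07 ± 0.17. By spike-ins HSP12 and HSP42 were both lower in gcn5 than in SM-treated WT, HSP42 by more. An exact permutation test of 3 against 3 cannot go below 0.1, so no p is given for these ratios.

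**Figure D4:**
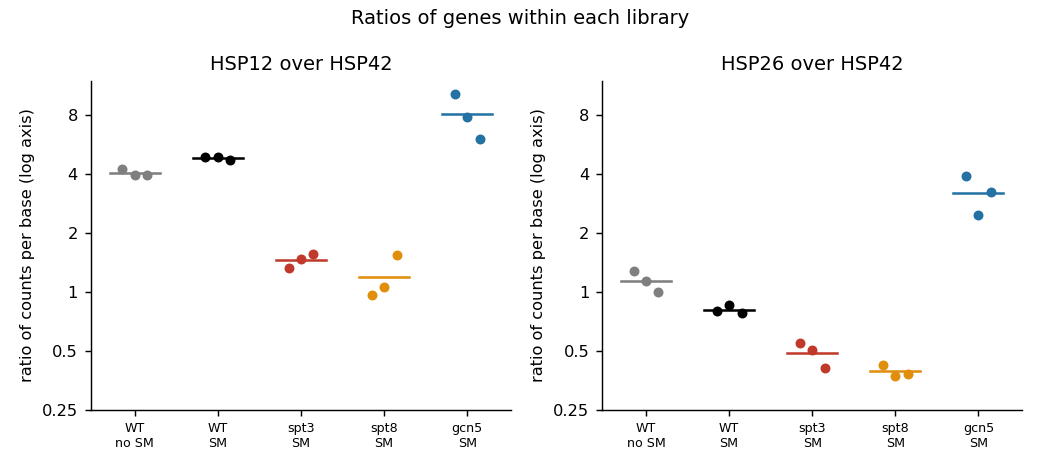
HSP12 over HSP42 and HSP26 over HSP42, as counts per base within each library (points) with the group mean (line), on a log axis. HSP26 to HSP42 in gcn5, 2.49 to 3.91, lies above every library of the other 4 groups.

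Set against untreated WT, the SM-treated deletion strains differ from it in both SM and genotype. In spt3 all 7 were lower, from DDR2 (-3.03) and HSP12 (-2.67) to YGP1 (-0.89), with 9.73% of features called lower; with TMM these were at -3.66, -3.33 and -1.57, with 38.2% of features. In spt8 all 7 were lower, from HSP12 (-2.52) and HSP26 (-2.33) to YGP1 (-0.50), with 8.33% of features; with TMM these were at -3.21, -3.01 and -1.19, with 38.6%, and HSP42 moved from -0.78 to -1.47. In gcn5 6 were lower, led by RTN2 (-2.18) and HSP42 (-1.53), with 1181 of 6564 features called lower (18%). HSP26 was at -0.04 there (edgeR adjusted p = 0.887), but it was called lower without gcn5 library 3 (-0.51, edgeR adjusted p = 0.00285), with TMM (-0.47, 0.00751) and with DESeq2 size factors (-0.49, 0.00554). With TMM all 7 were thus lower in gcn5, against 39.7% of features. HSP42 was at -1.99 without gcn5 library 3. The calls of DDR2 and HSP12 in gcn5 were lost without gcn5 library 2 (0.0995 and 0.0501), DDR2 also without untreated library 1 (0.0508), and YGP1 in spt8 without spt8 library 1 (0.0865).

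The 7 genes held 0.543% ± 0.029 of all yeast counts in untreated WT, 0.398% ± 0.016 in SM-treated WT, 0.161% ± 0.015 in spt3, 0.212% ± 0.021 in spt8 and 0.229% ± 0.031 in gcn5 (SD, n = 3 libraries).

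MSN4, of the activator pair, fell by 1.17 log2 in spt3 (edgeR adjusted p = 2.06e-05) and by 0.90 in spt8 (0.00208), and was at -0.08 in gcn5 (0.776), or at -0.39 without gcn5 library 3 (0.0373). With SM in WT it was at 0.36 (0.118), and between spt8 and gcn5 at -0.82 (0.00129; -0.52 without gcn5 library 3). Its levels were 17711 ± 3347 scaled counts in SM-treated WT, 7855 ± 1888 in spt3, 9473 ± 1111 in spt8 and 16736 ± 5749 in gcn5, where library 3 had 23371 and the others 13625 and 13214. MSN2 was called in no strain by spike-ins (-0.18, -0.01 and -0.27); with TMM it was lower with SM (-0.48) and in spt3 (-0.33), and without gcn5 library 3 in gcn5 (-0.60, edgeR adjusted p = 0.00125). HSF1 was higher in spt3 by 0.60 (edgeR adjusted p = 0.0198), and at -0.41 in gcn5 without library 3 (0.0248). Without that library the median feature lay at -0.39 in gcn5 against SM-treated WT, and 51.2% were called lower. The MSN4 and HSF1 values there were near that median. Whether these levels bear on the 7 genes was not tested.

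Of the closest relatives, SPS100 (a spore wall gene related to YGP1) rose with SM by 1.81 log2 (edgeR adjusted p = 2.61e-08) where YGP1 was at 0.04, and fell in spt3 by 1.23. HOR7, related to DDR2, rose by 0.60 with SM by spike-ins (edgeR adjusted p = 0.00212) and was at 0.05 with TMM, and fell by 0.78 in spt3. SED1, the abundant cell wall relative of SPI1, fell by 0.41 in spt3 (edgeR adjusted p = 0.0363), and RTN1, the main reticulon, was called in none of the 4 main comparisons by spike-ins; with TMM it was lower with SM (-0.58) and higher in gcn5 (0.25). DDR2 per coding length was 0.358 of HOR7 in SM-treated WT and 0.064 in spt3, and SPI1 0.165 and 0.057 of SED1.

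Among 40 other Msn2/4-dependent stress genes, HOR7 included, 18 fell and 4 rose with SM, 38 fell in spt3, 31 in spt8 and 34 in gcn5, and 0 rose in a deletion strain by spike-ins. With TMM 36 fell and 1 rose with SM, 39 fell in spt3, 39 in spt8 and 34 in gcn5, where 1 rose. The shares of all features called lower in these 4 comparisons are 7.57%, 14.0%, 5.58% and 30.4% by spike-ins. With TMM they are 40.7%, 33.5%, 21.4% and 34.4%. The shares of all features called higher with SM are 55.7% by spike-ins and 38.7% with TMM. Without gcn5 library 3, 37 of the 40 fell in gcn5, against 51.2% of all features. By spike-ins their median changes were -0.39, -1.60, -1.16 and -1.22, beside 0.54, 0.11, 0.13 and -0.19 over all features. With SM HXK1, a hexokinase, fell by 1.34, SOL4, of the pentose phosphate pathway, fell by 1.30 and the aldose reductase gene GRE3 fell by 1.25. In spt3 HXK1 fell by 3.87, GPH1, glycogen phosphorylase, fell by 3.56 and SOL4 fell by 3.51. In spt8 HXK1 and the transketolase gene TKL2 both fell by 2.56 and GPH1 fell by 2.46, and in gcn5 SOL4 fell by 2.14, TFS1, an inhibitor of carboxypeptidase Y, fell by 2.01 and GPH1 fell by 1.87.

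Of 23 Hsf1-dependent and other chaperones, 17 fell and 2 rose with SM (with TMM 21 and 1). The Hsp70 genes SSA2 and SSA1 fell by 2.19 and 2.10, near-identical copies whose split is uncertain, and HSP82, an Hsp90 gene, fell by 1.84. In the deletion strains 5 rose and 2 fell in spt3, 0 rose and 1 fell in spt8, and 1 rose and 3 fell in gcn5, with medians of 0.29, -0.03 and -0.07. With TMM 9 rose and 6 fell, 4 rose and 9 fell, and 8 rose and 5 fell. Over all features 21.7%, 6.57% and 10.5% rose in these strains by spike-ins, and with TMM 32.1%, 23.4% and 33.3% did, beside the shares that fell given above. Without gcn5 library 3, 0 rose and 13 fell in gcn5, while 514 of 6570 features rose and 51.2% fell. The median chaperone then lay at -0.34 and the median feature at -0.39. YDJ1, an Hsp40 gene, rose by 1.06 in spt3, where CUR1 fell by 0.98 and HSP78 fell by 0.64. CUR1 also fell by 0.54 in spt8 and by 0.83 in gcn5, where SSE2 fell by 0.68 and HCH1 fell by 0.57.

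Of 27 regulators of the pathway, 9 rose and 2 fell with SM by spike-ins, but 5 rose and 15 fell with TMM. Over all features 55.7% rose with SM by spike-ins and 38.7% with TMM. The median regulator was at 0.36 by spike-ins and the median feature at 0.54. PDE2, which breaks down cAMP, and the kinase gene YAK1 each rose by 1.10, and WHI2 rose by 0.95. In spt3 3 rose and 4 fell, and HOT1 rose by 0.92. In spt8 1 rose, HOT1 by 0.70, and 1 fell, MSN4. In gcn5 1 rose and 12 fell; HOG1, a stress kinase, fell by 1.14 and RAS2 fell by 1.08. With TMM 5 rose and 12 fell in spt3, 2 rose and 6 fell in spt8, and 6 rose and 12 fell in gcn5. Without gcn5 library 3, 0 rose and 21 fell in gcn5 by spike-ins, against 51.2% of all features that fell. The other shares of all features are those given for the other lists.

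**Figure D5:**
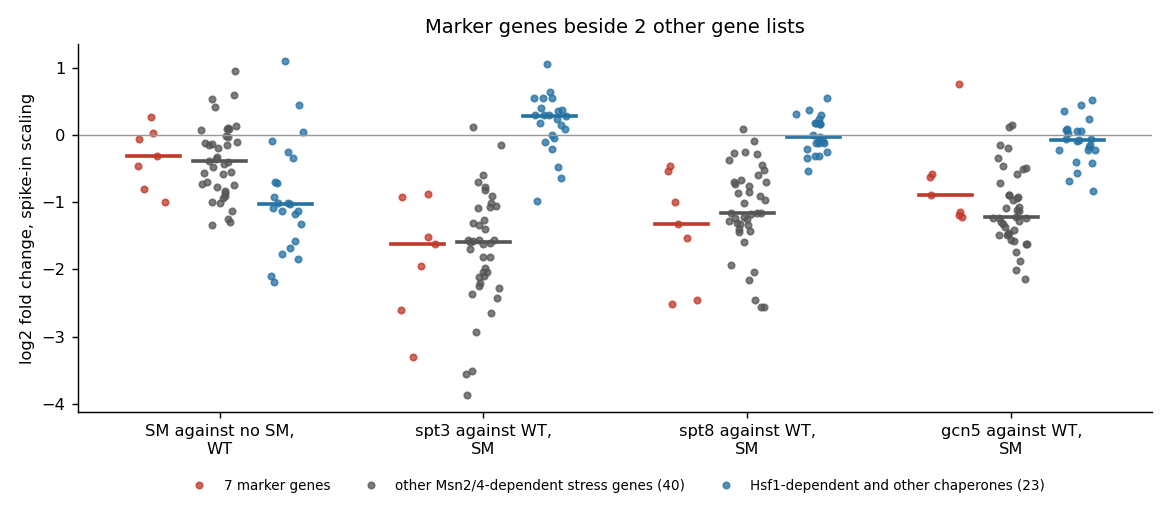
Log2 changes of the 7 genes, 40 other Msn2/4-dependent genes and 23 chaperones, for SM in WT and for each deletion strain against SM-treated WT, by spike-in scaling, with a line at each median. The other Msn2/4-dependent genes have medians of -1.60, -1.16 and -1.22 in spt3, spt8 and gcn5, and the chaperones 0.29, -0.03 and -0.07.

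The genes whose pattern over the 5 group means was most like each member's were taken by the root mean square difference of centred log2 means, a description over 5 groups. HSP42 was nearest to ATG42 (0.050), UGP1 (0.067) and TVS1 (0.080), and YGP1 to TPS2 (0.076), UGP1 (0.090) and YDC1 (0.096). SPI1 was nearest to TDH1 (0.107), GDB1 (0.108) and STP4 (0.115), and RTN2 to ALD3 (0.162), FMP45 (0.170) and YNK1 (0.175). HSP12 and DDR2 shared XBP1 (0.198 and 0.244), HXT7 (0.254 and 0.327; its near-identical copy HXT6 makes its counts uncertain) and HAP4 (0.285 and 0.309). HSP26 was nearest to IMD2 (0.269), HXT3 (0.326) and NCA3 (0.345). Within the 7, HSP42 and YGP1 were closest (0.146), then HSP12 and DDR2 (0.243), and HSP42 and DDR2 farthest apart (1.10).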

How the data were processed

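The submitters' processing notes name STAR, SAMtools, DESeq2 and the sacCer3 build without roles; neither versions, nor the counting tool, nor the counted strand is given in the sources used here. Per the labels, paired-end libraries came from a stranded kit after rRNA depletion, and 1.2 µg of RNA received 2.4 µl of diluted ERCC mix. The deposited values are raw counts per gene, for 6692 yeast features and 92 spike-ins, at 24.8 to 45.7 M yeast counts per library. Of the identifiers 6008 match the RefSeq R64 annotation, 6000 at the same coordinates, and 6660 of 6664 nuclear features begin with ATG there.

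Size factors are medians of ratios over 74 spike-ins. edgeR 4.0.16 (limma 3.58.1, R 4.3.3) quasi-likelihood tests were fitted to all 15 libraries after filterByExpr, with Benjamini-Hochberg adjustment over 6564 features and calls at 0.05. SE is the log2 change divided by the square root of F. The steps were tested on simulated data. Alternatives were TMM, DESeq2 1.42.0 size factors and Wald test, summed spike-ins, no filter, a replicate block, fits of 2 groups and leaving out each library. Python 3.11.15 with pandas 2.3.3, numpy 2.4.6 and matplotlib 3.10.9 made tables and figures. Nearest patterns used features with a mean of 100 scaled counts or more. The text names all 7 genes, 4 relatives, MSN2, MSN4 and HSF1, and the 3 called genes with the largest change per list in each of the 4 comparisons with WT, except where a result is not reported here. The genes, lists and rules were chosen with earlier results of these data known. Replicate numbers were not taken as pairs, because in 0 of 10 comparisons were all same-numbered correlations of residuals above 0.1 (range -0.52 to 0.446).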

Additional observations from a re-analysis of the deposited data

How the results depend on the processing

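Calls per comparison kept the same count within 1.5 times under most settings. For SM in WT (3 of 7), TMM and DESeq2 size factors gave 6, all lower, the fit of 2 groups 5 (4 lower and DDR2 higher), and TMM without gcn5 library 3, chosen after seeing the data, 6. For spt3 against spt8 (1 of 7) these gave 4, 4, 3 and 5. The calls over all features, 6488 to 6575 in these fits, moved too. For SM 2672, 2773, 812 and 2757 were lower in that order of settings, beside 497 in the main fit. For spt3 against spt8 1033, 1129, 378 and 1288 were lower, beside 157. Leaving out each library of the groups compared gave 2 to 3 calls for SM, 7 to 7 for spt3, 5 to 6 for spt8 and 5 to 7 for gcn5 against WT with SM, 0 to 2 for spt3 against spt8, 4 to 6 for spt3 against gcn5 and 5 to 7 for spt8 against gcn5; against untreated WT it gave 7 to 7, 6 to 7 and 4 to 7 for spt3, spt8 and gcn5. With a replicate block the number of calls stayed at 3, 7, 6, 7, 1, 4 and 6 in the order above, and 7, 7 and 6 against untreated WT; within spt3 against spt8 SPI1 was lost (adjusted p = 0.0898) and DDR2 gained (0.0487). The numbers do not pair the samples in the design, and only in spt3 against spt8 did each library correlate best with its own number, 6 of 6.

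Direction reversed for DDR2 with SM (-0.284 TMM, -0.313 DESeq2 size factors, -0.285 TMM without gcn5 library 3) and YGP1 with SM (-0.523, -0.552 and -0.523 in that order, -0.098 summed spike-ins, -0.010 without untreated library 3, -0.063 without SM library 2). On leaving out single libraries, HSP12 with SM ranged from -0.182 to 0.005 (without SM libraries 2 and 3), and YGP1 with SM up to 0.122 (without SM library 3). With TMM HSP12 with SM lay outside that range and was called lower. Over single libraries left out, HSP12 in spt3 against spt8 ranged from -0.379 to 0.222 (without spt8 libraries 1 and 3). YGP1 in spt3 against gcn5 was at -0.067 (TMM) and -0.078 (DESeq2 size factors), and RTN2 in spt8 against gcn5 at -0.087 and -0.082. RTN2 in spt3 against gcn5 ranged from -0.495 to 0.016 on leaving out single libraries (gcn5 libraries 2 and 3), and was called lower with TMM. HSP26 in gcn5 against untreated WT was at 0.035, 0.074 and 0.241 without untreated library 1, gcn5 library 1 or gcn5 library 2, but called lower at -0.472 (TMM), -0.494 (DESeq2 size factors), -0.513 (without gcn5 library 3) and -0.689 (TMM without gcn5 library 3). In the fit of all groups by spike-ins none of these was a call, and the causes were not tested. Over all gene values, leaving out a library kept 385 direction and side of the threshold, lost 21 calls, gained 6 and reversed 8; no filter changed none of 70.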
